A study of Mus musculus with 6 samples.

Results

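The interferon-stimulated genes described here are a named list of 34 genes, found by symbol among the 53458 genes to which the deposited transcript tables were summed, and all 34 were found. They were measured by RNA-seq in leukemic blasts from the bone marrow of transplanted mice (strain label C57/BL6). All blasts were Cebpa-/p30, a state without full-length C/EBPα in which the short p30 form remains. They were either homozygous for the Asxl1 change G643W (genotype label Asxl1G643W/G643W, called G643W, 3 libraries) or had wild-type Asxl1 (label Asxl1WT, called WT, 3 libraries). Blasts had been sorted as CD45.2+ cells with low Mac1 and low Gr1 that lacked Ter119, B220 and CD3. Age, the hosts' own cells and the primary leukemia behind each library are not stated in the labels, so that a p-value here describes library-to-library spread, which can be partly technical.

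Interferons are secreted when a cell senses foreign or misplaced nucleic acid. Type I interferon binds a receptor of Ifnar1 and Ifnar2, the kinases Jak1 and Tyk2 act on Stat2, and Stat2 joins Irf9 in ISGF3, a transcription factor complex that binds the interferon-stimulated response element (ISRE) in front of its targets. Interferon gamma uses another receptor. In blood-forming tissue, type I interferon is known to push resting stem cells into cycle.

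The promoter stretches of 9 members are shown because they carry letters like those of the element through which these genes are known to be induced. RefSeq promoter windows (GRCm38.p6, 250 bases before to 50 bases after the gene start) were matched by symbol for 25 of the 34 members. The ISRE-like letters GAAANNGAAA were searched on both strands, and overlapping matches were kept. Capitals mark the matches, and each stretch of 80 bases is written 5′ to 3′ on the strand of its gene, so that a match on the opposite strand reads TTTCNNTTTC.
Ifit1 (chr19:34640759-34640838, plus strand): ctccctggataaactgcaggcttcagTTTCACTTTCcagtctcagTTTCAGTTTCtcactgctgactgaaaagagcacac
Ifit3 (chr19:34583355-34583434, plus strand): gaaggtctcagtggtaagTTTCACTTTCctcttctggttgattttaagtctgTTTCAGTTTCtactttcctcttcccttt
Ifit3b (chr19:34607751-34607830, plus strand): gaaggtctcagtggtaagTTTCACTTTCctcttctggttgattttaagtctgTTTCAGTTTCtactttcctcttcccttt
Isg15 (chr4:156200846-156200925, minus strand): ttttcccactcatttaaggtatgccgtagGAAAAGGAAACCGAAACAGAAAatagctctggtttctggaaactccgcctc
Oas1a (chr5:120907498-120907577, minus strand): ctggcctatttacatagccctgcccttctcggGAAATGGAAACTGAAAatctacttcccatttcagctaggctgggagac
Rsad2 (chr12:26456528-26456607, minus strand): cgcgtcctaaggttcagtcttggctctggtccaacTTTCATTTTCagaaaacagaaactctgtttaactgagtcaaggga
Stat2 (chr10:128270248-128270327, plus strand): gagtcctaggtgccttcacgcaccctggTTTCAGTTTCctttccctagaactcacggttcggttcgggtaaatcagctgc
Gbp2 (chr3:142620569-142620648, plus strand): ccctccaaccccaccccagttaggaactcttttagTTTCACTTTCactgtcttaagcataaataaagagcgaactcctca
Gbp7 (chr3:142530248-142530327, plus strand): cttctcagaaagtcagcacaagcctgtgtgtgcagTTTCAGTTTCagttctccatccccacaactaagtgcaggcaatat

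At least 1 match lay in the windows of 16 of the 25 members (64%), against 3.99% of the 27025 genes in the promoter table. Of the stretches shown, that of Isg15 held 3 overlapping matches, while those of Ifit1, Ifit3, Ifit3b and Oas1a held 2 each. The stretches of Ifit3 and Ifit3b were identical over all 80 bases. A match describes letters in a window and does not show that a factor was bound there.

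Sequencing depth ranged from 61167075 to 101189225 estimated reads per library. Single members held between 31.02 and 47728 estimated reads in a library, and 9 of the 204 values of a member in a library were under 100 reads. The blast and progenitor marker Mpo lay at 173 to 2181 TPM and Kit at 2.12 to 35.9 TPM, while Cd3e of T cells lay at or below 0.22 TPM. The Asxl1 transcript had a log2 fold change of 0.95 ± 0.27 (SE, edgeR adjusted p = 0.454), a value that does not show the base change itself. TPM is the transcript abundance scaled to length and library, and CPM is the count scaled to the library alone.

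WT library 1 stood apart from the other 5 libraries over most of these genes. The 34 members summed to 205, 283 and 366 TPM in G643W libraries 1 to 3, and to 2076, 176 and 272 TPM in WT libraries 1 to 3. By TMM-scaled CPM, WT library 1 was the highest of the 6 libraries in 31 of the 34 members, against 19.3% of the 20654 genes tested. It exceeded the next library by more than 2-fold in 28 of them, against 2.74% of the genes tested. None of the other 5 libraries stood more than 2-fold above the next in any member. Since whole sorts were sequenced, the number of responding cells and the RNA per cell cannot be told apart. Comparisons of the genotypes are therefore given with and without WT library 1.

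**Figure D1:**
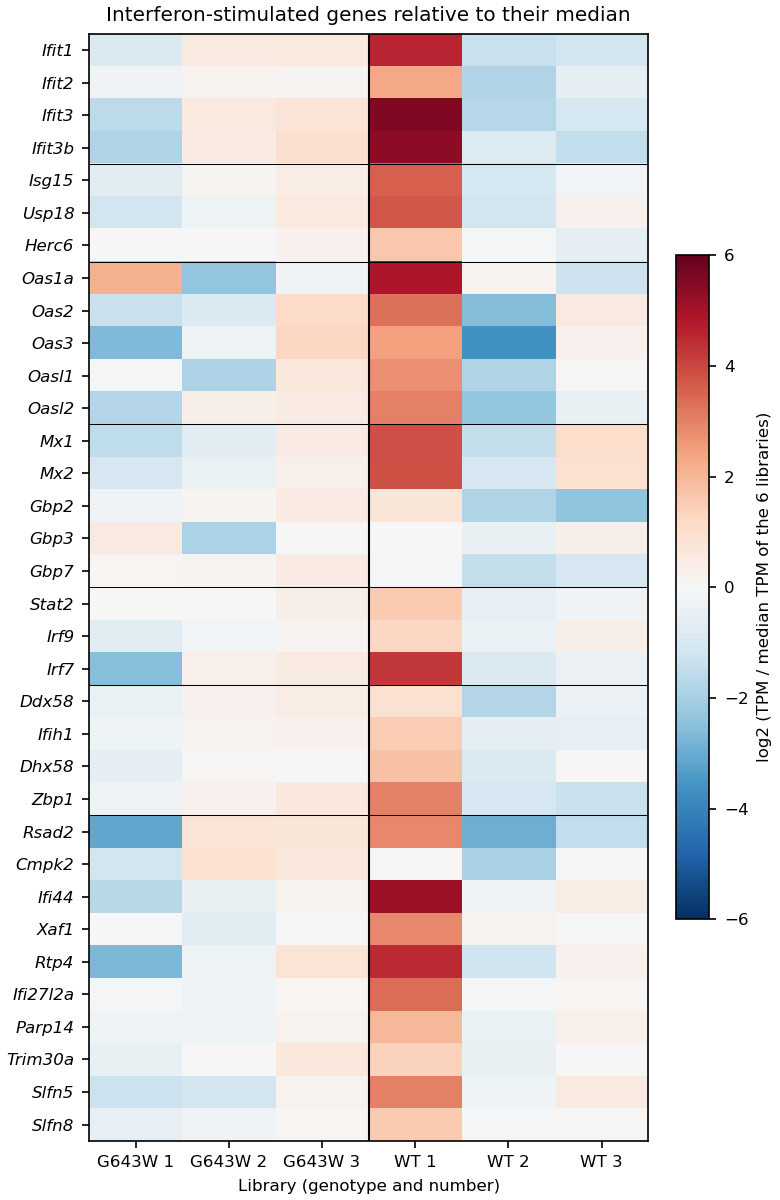
Level of the 34 interferon-stimulated genes (rows, grouped by role) in the 6 libraries (columns, G643W left of WT), as log2 of TPM over the median TPM of the 6 libraries. WT library 1 is the highest column in 31 rows, and Gbp3, Gbp7 and Cmpk2 are the rows in which it is not.

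No member passed the test between the genotypes. All 34 members passed the filter on low counts, and 0 were called lower and 0 higher (edgeR, Benjamini-Hochberg adjusted p under 0.05), where 0.0678% of the genes tested were called lower, 0.0533% higher and 0.121% in either direction. At an unadjusted edgeR p under 0.05 there were 7 members, against 9.66% of the genes tested. DESeq2 called 0 members and gave no p to 11 of them, where it called 2.21% of the genes with an adjusted p. With all libraries, 30 members had a negative and 4 a positive log2 fold change, where 49.2% of all genes had a positive one. The median over the members was -1.53, against -0.01 over all genes.

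Without WT library 1 the sign of the median turned. That library was left out because of its level in these same members, so a shift to more positive values was built into the choice. The shares over all genes are not a like comparison for it, since WT library 1 was not chosen by them. The same limit applies to each comparison below without WT library 1. Then 24 members had a positive and 10 a negative log2 fold change, where 51.2% of all genes had a positive one, and the median was 0.35, against 0.02 over all genes. In edgeR, 0 members were called, where 0.00928% of genes were called lower, 0.0139% higher and 0.0232% in either direction. At an unadjusted edgeR p under 0.05 there were 3 members, Gbp2, Gbp7 and Zbp1, against 7.87% of genes.

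By TMM-scaled CPM all 3 G643W libraries lay below all 3 WT libraries in 3 members, Ifi44, Xaf1 and Slfn8, against 8.89% of the genes tested. They lay above all 3 WT libraries in 1 member, Gbp7, against 7.05%, so that 4 members had no overlap in either direction, against 15.9%. Without WT library 1 the G643W libraries lay below in the same 3 members, against 14% of genes. They lay above in 6 members, Ifit1, Ifit2, Gbp2, Gbp7, Ifih1 and Zbp1, against 14.4%, and 9 members had no overlap in either direction, against 28.4%. For Ifi44 and Slfn8 the genotypes overlapped on the TPM scale.

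**Figure D2:**
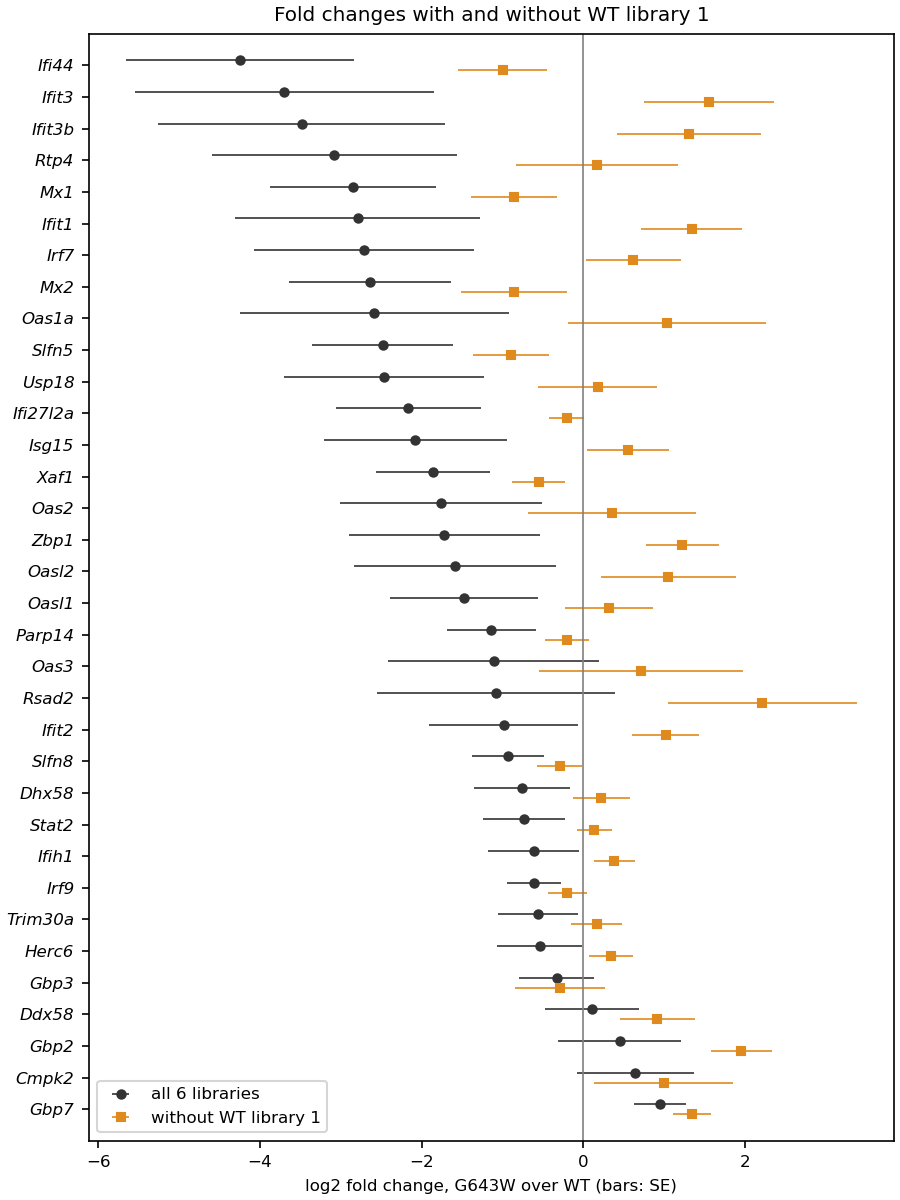
Log2 fold change of each member, G643W over WT, in the edgeR fit with all 6 libraries (circles) and in the fit without WT library 1 (squares), with bars of 1 SE. Of the 34 circles 30 lie left of 0, and of the squares 24 lie right of 0.

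The transcription factors of the response differed in how far WT library 1 stood out. Irf7, a factor that drives interferon alpha genes and is itself induced by interferon (chromosome 7, 141262706 to 141266481, minus strand), was at 3.98, 28.8 and 34.6 TPM in G643W libraries 1 to 3, and at 437, 12.9 and 18.1 TPM in WT libraries 1 to 3. WT library 1 was 12.6 times the next library, and G643W library 1 was the lowest of all. The log2 fold change of Irf7 was -2.71 ± 1.36 (SE, edgeR adjusted p = 0.540) with all libraries and 0.62 ± 0.59 (adjusted p = 0.705) without WT library 1.

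Stat2 and Irf9 are subunits of ISGF3. Stat2 was at 10.4, 9.86 and 12.98 TPM in G643W libraries 1 to 3, and at 30.1, 7.22 and 8.84 TPM in WT libraries 1 to 3. Irf9 was at 8.73, 12.3 and 15.3 TPM in G643W libraries, and at 32.7, 10.5 and 17.5 TPM in WT libraries. For both subunits WT library 1 was highest, by 2.32-fold for Stat2 and 1.88-fold for Irf9 over the next library. Their log2 fold changes were -0.73 ± 0.51 and -0.61 ± 0.33 with all libraries, and 0.13 ± 0.22 and -0.20 ± 0.24 without WT library 1 (SE, edgeR adjusted p at least 0.556).

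The Ifit genes encode proteins that bind viral RNA lacking host cap marks, and they lie in a cluster on chromosome 19. Ifit3, annotated on the plus strand from 34583531 to 34588731, had 0.51, 2.34 and 2.68 TPM in G643W libraries 1 to 3, and 72.8, 0.47 and 0.75 TPM in WT libraries 1 to 3. Ifit1 had 0.30, 0.79 and 0.80 TPM in G643W libraries, and 12.9, 0.22 and 0.26 TPM in WT libraries. For Ifit1 every G643W library thus lay between WT library 1 and the other WT libraries. Ifit2 had the same order on this scale, with 3.47, 4.64 and 4.47 TPM in G643W libraries, and 20.02, 1.13 and 2.75 TPM in WT libraries.

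WT library 1 exceeded the next library 27.1-fold for Ifit3, the widest such gap among the 34 members, 21.2-fold for Ifit3b, 16.1-fold for Ifit1 and 4.31-fold for Ifit2. The log2 fold change of Ifit3 was -3.70 ± 1.85 (SE, edgeR adjusted p = 0.539) with all libraries and 1.56 ± 0.80 (adjusted p = 0.615) without WT library 1. All 4 Ifit genes had a negative value with WT library 1 and a positive one without it. Transcripts of Ifit3 and Ifit3b are 97.8% identical over 97.4% of the Ifit3 transcript, so the division of reads between them is uncertain. Their sum had a log2 fold change of -3.65 (edgeR adjusted p = 0.538).

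**Figure D3:**
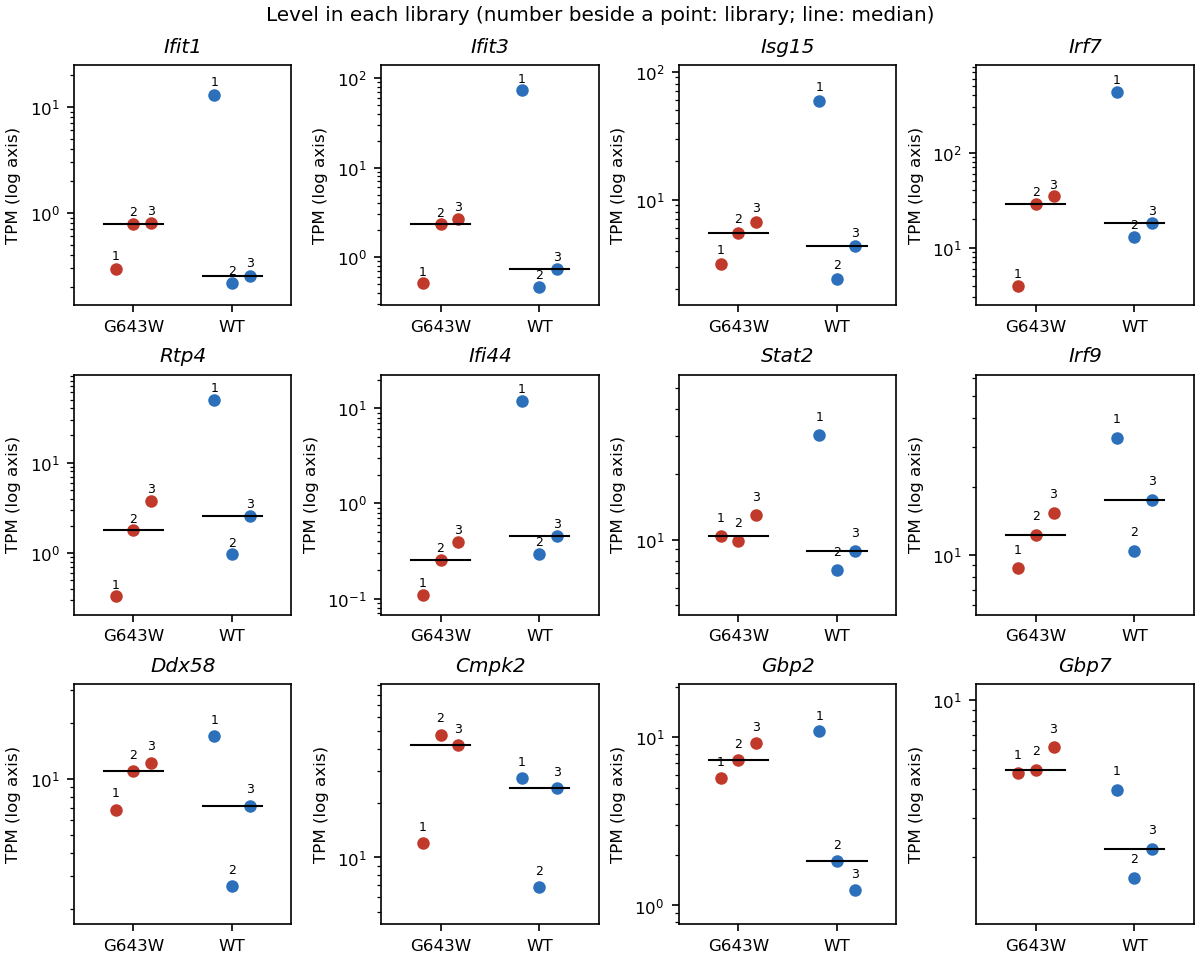
TPM of 12 members in each library on log axes, G643W left of WT, with the library number above each point and a line at the median of each genotype. In Ifit1, Ifit3, Isg15, Irf7, Rtp4 and Ifi44 WT library 1 lies far above the other 5 libraries, while in Gbp7 all 3 G643W libraries lie above all 3 WT libraries.

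Isg15 encodes a ubiquitin-like modifier, Herc6 the ligase that attaches it in the mouse, and Usp18 the protease that removes it and restrains the receptor. Isg15 was at 3.16, 5.52 and 6.72 TPM in G643W libraries 1 to 3, and at 59.02, 2.39 and 4.33 TPM in WT libraries 1 to 3. Usp18 was at 0.82, 1.43 and 2.71 TPM in G643W libraries, and at 23.7, 0.85 and 2.16 TPM in WT libraries. Outside WT library 1 the genotypes overlapped for Isg15 and Usp18. Herc6 varied less, with 6.64, 6.41 and 7.93 TPM in G643W libraries, and 20.3, 6.09 and 4.51 TPM in WT libraries. Log2 fold changes ran from -2.47 for Usp18 to -0.54 for Herc6 with all libraries, and from 0.18 for Usp18 to 0.55 for Isg15 without WT library 1 (edgeR adjusted p at least 0.539 in both fits). The Isg15 transcript is 95.2% identical to AC151275.1 over 63.8% of its length, and summing both left its log2 fold change at -2.08.

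The Oas enzymes make short oligoadenylates that switch on the nuclease RNase L, and Oasl1 is known in the mouse for holding back translation of Irf7. Oas3 was at 0.61, 3.16 and 9.02 TPM in G643W libraries 1 to 3, and at 20.9, 0.31 and 4.55 TPM in WT libraries 1 to 3. The other 5 libraries spread 29.4-fold for Oas3, wider than the 2.32-fold gap between WT library 1 and the next. Oas2 and Oasl2 had the same highest and lowest libraries as Oas3, at 20.9 and 0.34 TPM for Oas2 and at 56.8 and 1.42 TPM for Oasl2 in WT libraries 1 and 2.

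Oas1a was lowest elsewhere, with 6.99, 0.31 and 1.395 TPM in G643W libraries, and 45.9, 1.79 and 0.66 TPM in WT libraries. Its transcript is 97.6% identical to Oas1g over 98.7% of its length, so the division of reads is uncertain. Oas1a and Oas1g summed had a log2 fold change of -2.97 (edgeR adjusted p = 0.567), and Oas1a alone -2.59 (adjusted p = 0.586). Oasl1 ranged from 1.65 to 9.13 TPM in G643W libraries and from 1.72 to 39.4 TPM in WT libraries. All 5 genes of the family had a negative log2 fold change with WT library 1 and a positive one without it.

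The sensors Ddx58 (RIG-I), Ifih1 (MDA5) and Dhx58 (LGP2) are helicases that recognise double-stranded RNA, and Zbp1 senses left-handed nucleic acid and can start necroptosis. Zbp1 was at 5.29, 7.78 and 10.2 TPM in G643W libraries 1 to 3, and at 53.5, 3.27 and 2.58 TPM in WT libraries 1 to 3. Every G643W library of Zbp1 lay between WT library 1 and the other WT libraries. The log2 fold change of Zbp1 was -1.72 ± 1.18 (SE, edgeR adjusted p = 0.599) with all libraries and 1.23 ± 0.45 (adjusted p = 0.608) without WT library 1. Ddx58 was at 6.81, 10.9 and 12.2 TPM in G643W libraries, and at 16.9, 2.66 and 7.17 TPM in WT libraries. WT library 1 exceeded the next library 1.39-fold for Ddx58, 2.36-fold for Ifih1 and 3.26-fold for Dhx58.

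The large GTPases differed among themselves. Mx1, a dynamin-like antiviral protein that is known to be non-functional in C57BL/6 mice, was at 2.13, 3.77 and 8.47 TPM in G643W libraries 1 to 3, and at 90.4, 2.26 and 12.6 TPM in WT libraries 1 to 3. Its log2 fold change was -2.85 ± 1.02 (SE, edgeR adjusted p = 0.493) with all libraries and -0.86 ± 0.54 (adjusted p = 0.631) without WT library 1, so that Mx1 kept its sign. Mx2, annotated as a polymorphic pseudogene, also had a negative value in both fits, at -2.64 with all libraries and -0.86 without WT library 1.

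The guanylate-binding proteins attack vacuoles of intracellular microbes and respond strongly to interferon gamma, and the 3 members lie in a cluster on chromosome 3. Gbp7 was at 4.72, 4.89 and 6.15 TPM in G643W libraries 1 to 3, and at 3.98, 1.62 and 2.18 TPM in WT libraries 1 to 3. Gbp7 had a log2 fold change of 0.95 ± 0.32 (SE, edgeR adjusted p = 0.493) with all libraries and 1.35 ± 0.23 (adjusted p = 0.394) without WT library 1, and all 3 G643W libraries were higher. Gbp2 was at 5.73, 7.33 and 9.299 TPM in G643W libraries, and at 10.9, 1.85 and 1.24 TPM in WT libraries, where WT library 1 was high and the others were the lowest. Gbp3 was at 12.5, 2.29 and 8.73 TPM in G643W libraries, and at 8.49, 6.23 and 11.2 TPM in WT libraries, and WT library 1 lay within the range of the others.

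Rsad2 and Cmpk2 are neighbours on chromosome 12 that face away from each other. Cmpk2 makes a nucleotide that the Rsad2 protein, viperin, converts into a chain terminator of viral RNA. Rsad2 was at 0.25, 3.67 and 3.52 TPM in G643W libraries 1 to 3, and at 15.7, 0.28 and 0.76 TPM in WT libraries 1 to 3. Cmpk2 was at 12.04, 48.1 and 41.9 TPM in G643W libraries, and at 27.6, 6.83 and 24.3 TPM in WT libraries. Both were low in G643W library 1 and WT library 2, yet WT library 1 was 4.27 times the next library for Rsad2 and below G643W libraries 2 and 3 for Cmpk2. Rsad2 had the highest log2 fold change of the members without WT library 1, at 2.22 ± 1.17 (SE, edgeR adjusted p = 0.616), against -1.08 ± 1.48 (adjusted p = 0.783) with all libraries.

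Ifi44 had the lowest log2 fold change of the members, at -4.25 ± 1.42 (SE, edgeR adjusted p = 0.492). It was at 0.11, 0.26 and 0.39 TPM in G643W libraries 1 to 3, and at 11.9, 0.29 and 0.46 TPM in WT libraries 1 to 3. Without WT library 1 the log2 fold change of Ifi44 was -1.0 ± 0.55 (edgeR adjusted p = 0.618). Xaf1, an antagonist of the caspase inhibitor XIAP, was at 9.66, 6.099 and 9.67 TPM in G643W libraries, and at 71.3, 11.4 and 9.92 TPM in WT libraries. Xaf1 was the member that was lower in every G643W library on both scales, with a log2 fold change of -1.865 ± 0.71 (SE, edgeR adjusted p = 0.498) with all libraries and -0.55 ± 0.33 (adjusted p = 0.626) without WT library 1.

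Ifi27l2a, a small hydrophobic interferon-induced protein, had the highest TPM of the members in every library, at 56.3, 50.5 and 66.2 TPM in G643W libraries 1 to 3, and at 626, 55.7 and 67.5 TPM in WT libraries 1 to 3. Its other 5 libraries spread 1.34-fold, and WT library 1 stood 9.28-fold above the next. Rtp4, a chaperone of G protein-coupled receptors, was at 0.33, 1.79 and 3.81 TPM in G643W libraries, and at 49.5, 0.96 and 2.59 TPM in WT libraries. The lowest library of Rtp4 was thus G643W library 1.

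Parp14, an ADP-ribosyltransferase, and the Schlafen genes Slfn5 and Slfn8 had a negative log2 fold change in both fits. The values were -1.14 for Parp14, -2.48 for Slfn5 and -0.94 for Slfn8 with all libraries, and -0.21, -0.89 and -0.29 in the same order without WT library 1 (edgeR adjusted p at least 0.493). Slfn8 has relatives with 92.0% (Slfn9) and 92.2% (Slfn10-ps) identity, which makes its level less certain. Trim30a, a ubiquitin ligase that restrains inflammatory signalling, had 12.8, 17.97 and 27.5 TPM in G643W libraries 1 to 3, and 45.9, 12.8 and 16.97 TPM in WT libraries 1 to 3.

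Outside WT library 1 the members still differed between libraries, with both genotypes at low values. For each library, the median over members of log2(CPM + 0.1), relative to the mean of each gene over the 6 libraries, was -0.85, -0.059 and 0.075 in G643W libraries 1 to 3, and 2.83, -1.02 and -0.29 in WT libraries 1 to 3. G643W library 1 therefore lay between WT libraries 2 and 3. By CPM it was the lowest of all libraries in 17 of the 34 members, and WT library 2 in 10, where they were lowest in 15.0% and 19.9% of the genes tested. By TPM the order was the other way round, with G643W library 1 lowest in 11 members and WT library 2 in 15.

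The receptors showed no such gap in WT library 1. Of 9 receptor and kinase genes 0 were called, and by TPM WT library 1 was the highest library in 3 and more than 2-fold above the next in 0. Ifnar2, which had the lowest p of that list, was at 65.5, 43.4 and 47.95 TPM in G643W libraries 1 to 3, and at 85.4, 73.2 and 71.9 TPM in WT libraries 1 to 3. All 3 G643W libraries were lower, with a log2 fold change of -0.66 ± 0.24 (SE, edgeR adjusted p = 0.496) that was -0.67 without WT library 1. Log2 fold changes were -0.33 for Ifnar1, -0.50 for Ifngr1, -0.17 for Jak1 and -0.38 for Tyk2 (edgeR adjusted p from 0.585 to 0.854).

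Irf1, a target of interferon gamma, lay at 26.3 to 32.2 TPM in G643W libraries and at 21.8 to 35.9 TPM in WT libraries, with a log2 fold change of 0.029 ± 0.24 (SE, edgeR adjusted p = 0.967). Most genes of a list of interferon gamma targets, given below, were instead highest in WT library 1. The interferon genes themselves were hardly detected. None of 21 interferon ligand genes passed the filter on low counts, and the list summed to 0.20 to 0.45 TPM in G643W libraries and to 0.13 to 1.00 TPM in WT libraries. Ifnb1, interferon beta, had 5 estimated reads in G643W library 2 and 0 in the other G643W libraries, and 52 in WT library 1 and 0 in the other WT libraries.

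Socs3, an inhibitor of cytokine receptors, and Cxcl10 and Ccl5, chemokines for T cells, were chosen after their values were seen. Socs3 was at 1.38, 4.59 and 15.3 TPM in G643W libraries 1 to 3, and at 219.6, 7.84 and 5.64 TPM in WT libraries 1 to 3. Cxcl10 was at 4.23, 2.82 and 4.39 TPM in G643W libraries, and at 71.1, 0.68 and 2.37 TPM in WT libraries. Ccl5 was at 0.88, 2.99 and 1.12 TPM in G643W libraries, and at 55.4, 0.66 and 1.801 TPM in WT libraries. In all 3 genes WT library 1 was the highest library, a pattern for which they were picked. Of 15 negative regulators of the response, WT library 1 was the highest by TPM in 8 and more than 2-fold above the next in 2.

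Of 9 further STAT and IRF genes, 0 were called by edgeR, 6 had a negative and 3 a positive log2 fold change, and the median was -0.29 with all libraries and 0.013 without WT library 1. Irf8, which directs monocyte and dendritic cell fate, was at 24.1, 3.97 and 8.91 TPM in G643W libraries 1 to 3, and at 39.6, 40.2 and 36.3 TPM in WT libraries 1 to 3. Its log2 fold change was -1.81 ± 0.51 (SE, edgeR adjusted p = 0.454) with all libraries and -1.80 ± 0.59 (adjusted p = 0.608) without WT library 1. Irf4, the lowest p of that list, was at 0.084, 0.046 and 0.089 TPM in G643W libraries, and at 3.12, 1.62 and 0.20 TPM in WT libraries (log2 fold change -4.38 ± 0.91, edgeR adjusted p = 0.327), and its log2 fold change was -3.81 without WT library 1. DESeq2 called both lower (adjusted p = 0.0433 for Irf8 and 1.09e-05 for Irf4), where it called 1.36% of the genes with an adjusted p lower.

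Of 13 upstream sensors and adaptors and of 15 negative regulators, 0 were called by edgeR. DESeq2 called 2 of the sensors and adaptors lower, against 1.36% of genes with an adjusted p, and 0 of the negative regulators. Slc15a4, an endosomal transporter needed for Toll-like receptor signalling and the lowest p of the sensors and adaptors, was at 106, 109 and 161 TPM in G643W libraries 1 to 3, and at 347, 255 and 210.2 TPM in WT libraries 1 to 3 (log2 fold change -1.19 ± 0.27, edgeR adjusted p = 0.379). Trex1, the exonuclease that clears cytosolic DNA and the lowest p of the negative regulators, had a log2 fold change of -1.70 ± 0.57 (SE, edgeR adjusted p = 0.493). Both were lower in all 3 G643W libraries.

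Of 67 further interferon-stimulated genes outside the 34, 63 passed the filter and 0 were called by edgeR. DESeq2 called 2 lower, against 1.36% of genes with an adjusted p, and gave no adjusted p to 10 of the 63. The median log2 fold change of the 63 was -0.62 with all libraries and 0.15 without WT library 1. By TPM WT library 1 was the highest library in 45 of the 63, where by CPM it was highest in 19.3% of the genes tested. Tor3a, an ATPase of the endoplasmic reticulum and the lowest p of this list, was at 9.26, 9.63 and 11.8 TPM in G643W libraries 1 to 3, and at 50.95, 28.2 and 29.9 TPM in WT libraries 1 to 3 (log2 fold change -1.36 ± 0.32, edgeR adjusted p = 0.398).

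Of 18 interferon gamma targets 16 passed the filter, and 0 were called by edgeR. DESeq2 called 1, Ciita, lower, against 1.36% of genes with an adjusted p, and gave no adjusted p to 4 of the 16. By TPM WT library 1 was the highest library in 15 of the 16 and more than 2-fold above the next in 7. The list summed to 73.2, 71.2 and 79.8 TPM in G643W libraries, and to 182, 63.6 and 61.3 TPM in WT libraries 1 to 3. The median log2 fold change of the 16 was -0.45 with all libraries and 0.56 without WT library 1. By CPM, 0 of the 16 lay above WT in all G643W libraries with all libraries, against 7.05% of genes, and 8 did without WT library 1, against 14.4% of genes. Those 8 were Igtp, Tgtp1, Tgtp2, Gbp4, Gbp5, Gbp6, Gbp8 and Gbp9, named after their values were seen. Gbp5, for example, was at 1.202, 0.82 and 1.52 TPM in G643W libraries 1 to 3, and at 2.87, 0.28 and 0.40 TPM in WT libraries 1 to 3. Ciita, the switch of MHC class II genes and the lowest p of the gamma list, was instead lower in every G643W library, with a log2 fold change of -2.39 ± 0.40 (SE, edgeR adjusted p = 0.176) that was -2.40 without WT library 1.

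Markers of some other cells were also high in WT library 1. Of 9 macrophage markers it was highest by TPM in 4, and the list summed to 87.4 to 174 TPM in G643W libraries and 105 to 206 TPM in WT libraries. C1qa, a complement gene of macrophages, was at 0.69, 0.31 and 3.51 TPM in G643W libraries 1 to 3, and at 30.9, 4.38 and 1.69 TPM in WT libraries 1 to 3, and Mertk lay at or below 0.23 TPM. Other markers of the list did not follow C1qa: Mrc1 was at 2.01, 1.79 and 4.33 TPM in G643W libraries, and at 0.33, 2.21 and 6.71 TPM in WT libraries, where WT library 1 was the lowest, and Adgre1, Vcam1, Cd5l and Spic were highest in other libraries. Without Adgre1, the most abundant of the list, the sums were 36.4, 5.14 and 24.01 TPM in G643W libraries 1 to 3, and 105, 37.8 and 16.1 TPM in WT libraries 1 to 3; leaving out the most abundant marker, for this and the next lists, was chosen after the values were seen. Of 10 monocyte markers WT library 1 was highest in 7, among them Cd14 and the interferon-inducible Fcgr1, with sums of 2687 to 3568 TPM in G643W libraries and 2112 to 4036 TPM in WT libraries. Ly6c2 made up most of each sum, and the other 9 markers summed to 314, 110.2 and 288 TPM in G643W libraries 1 to 3, and to 829.8, 543 and 309 TPM in WT libraries 1 to 3, highest in WT library 1. Of the 10 monocyte markers 9 had a negative log2 fold change with all libraries, and 0 were called by edgeR.

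For conventional dendritic cells WT library 1 was highest in 5 of 11 markers, with sums of 63.4 to 106 TPM in G643W libraries and 448 to 700.2 TPM in WT libraries. Zbtb46 and Xcr1 lay at or below 0.20 TPM. By CPM 7 of the 11 were lower in every G643W library, against 8.89% of the genes tested. DESeq2 called 6 lower, Cd209a, Flt3 and Batf3 among them, against 1.36% of genes with an adjusted p. Cd209a was at 0.21, 0.15 and 0.038 TPM in G643W libraries 1 to 3, and at 12.9, 44.7 and 4.36 TPM in WT libraries 1 to 3. The MHC class II genes H2-Ab1, H2-Eb1 and Cd74 of that list were called lower in G643W (edgeR adjusted p = 0.0346, 0.0257 and 0.0428), with log2 fold changes of -2.93, -3.32 and -2.69. Without WT library 1 the log2 fold changes of H2-Ab1, H2-Eb1 and Cd74 were -2.72, -3.12 and -2.53, all G643W libraries remained lower, and with 1 library fewer none was called (edgeR adjusted p = 0.0965, 0.0919 and 0.137). Of the plasmacytoid dendritic cell markers, a type known as a main source of type I interferon, 8 of 11 passed the filter and WT library 1 was highest in 1. Of the 8, 3 had a negative and 5 a positive log2 fold change. Siglech was at 0.17, 0.056 and 0.094 TPM in G643W libraries 1 to 3, and at 0.48, 1.46 and 0.77 TPM in WT libraries 1 to 3. Its log2 fold change was -3.18 ± 0.69 (SE, edgeR adjusted p = 0.346). DESeq2 called Siglech alone of this list lower (adjusted p = 1.25e-04), against 1.36% of genes with an adjusted p. Lair1, which other leukocytes also express, made up most of the summed level in most libraries. Without Lair1 the list summed to 6.19, 6.62 and 6.65 TPM in G643W libraries 1 to 3, and to 6.17, 36.01 and 7.77 TPM in WT libraries 1 to 3, so that WT library 2 was the highest and the other 5 were close together. Single genes weighed heavily in these sums. Cox6a2 alone was at 29.1 TPM in WT library 2, and Runx2 lay at 2.93 to 5.21 TPM over all libraries. Klk1 of this list was listed at 0 in all G643W libraries and in WT library 1. Neutrophil markers summed to 16209 to 184685 TPM in G643W libraries, and to 2718 TPM in WT library 1 and 13522 to 78716 TPM in the other WT libraries. The part of these cells in the result was not tested.

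**Figure D4:**
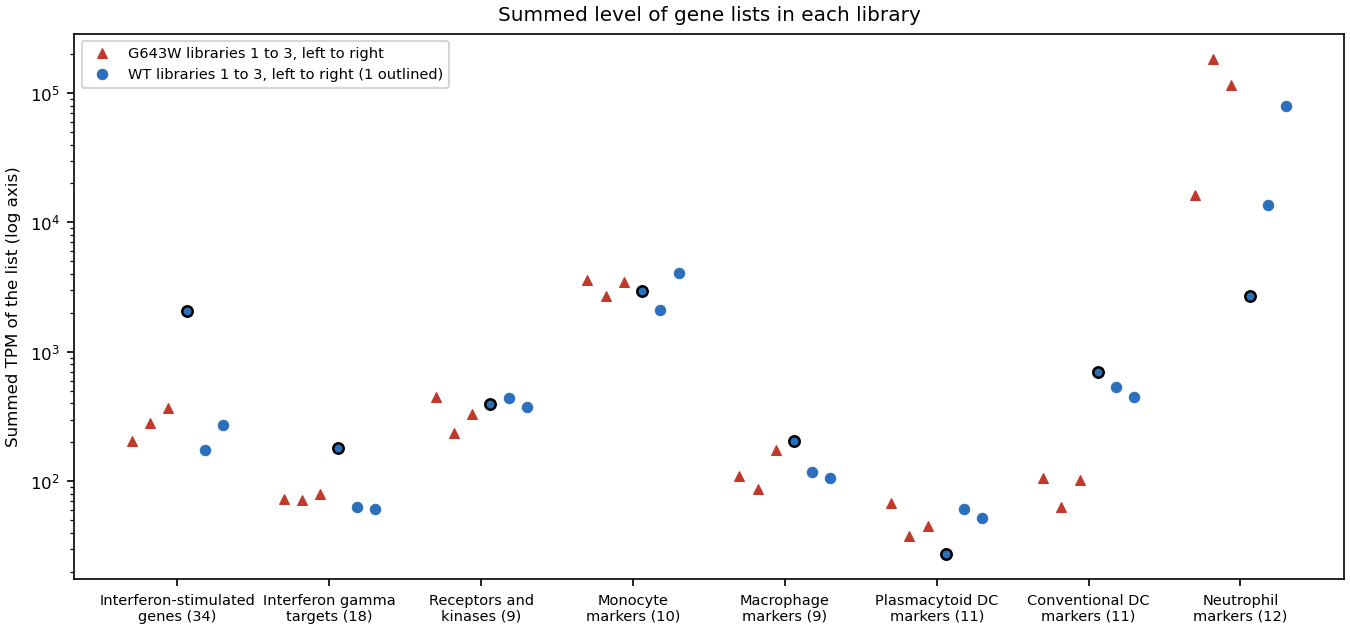
Summed TPM of gene lists in each library on a log axis, with G643W libraries as triangles left of WT libraries as circles, of which WT library 1 is outlined. The interferon-stimulated genes reach 2076 TPM in WT library 1 against 176 to 366 TPM elsewhere, while the neutrophil markers are lowest there.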

How the data were processed

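For each library the authors deposited a Salmon table of estimated counts of reads, TPM and effective length per transcript, per the file headers. Salmon 0.12.0, bcl2fastq and the builds mm10 and GRCm38.p6 are named in the submitters' processing notes; its index, its options and any use of strand were not given in the sources used here. Of 136288 transcripts, 136176 matched GENCODE M21 (GRCm38) and formed 53458 genes, and 112 without a match took up to 0.0365% of reads. Gene sums were rounded. edgeR 4.0.16 (R 4.3.3) was run with genotype as the single term, after filterByExpr (minimum count 10) and TMM, as a two-sided glmQLFTest with Benjamini-Hochberg adjusted p over 20654 genes and a threshold of 0.05. The SE is the absolute log2 fold change over the square root of F. The fit was tested on simulated data, in which genes varied independently and no library was raised over a set of genes. That test therefore does not cover a library like WT library 1. Alternatives used DESeq2 1.42.0 and limma 3.58.1, and copies were sought with BLAST+ 2.17.0 (95% identity over 50% of a transcript). The text names all members, a set of pathway genes and the lowest p of each pathway list. Some genes of these lists are not reported here. Members and lists were chosen with earlier results of these data known.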

Additional observations from a re-analysis of the deposited data

How the results depend on the processing

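No alternative called a member. The median log2 fold change of the members, -1.53, ranged from -2.004 to 0.35 when 1 library was left out and was positive only without WT library 1; under the other alternatives it ran from -1.63 without a scaling factor to -0.42 with the replicate block. Members without overlap numbered 4, but 2 with length-scaled counts and 3 to 9 with 1 library left out. Genes called over all genes numbered 25, but 16 without a scaling factor, 104 without a filter, 427 with DESeq2, 10 with length-scaled counts, 43 with limma on log2(TPM + 0.1), 2 when only protein-coding genes entered the fit and 0 to 16 with 1 library left out, the 0 (1277 at an unadjusted edgeR p under 0.05) being without WT library 2; the causes were not tested. With the replicate block there were 0 genes (1772 at an unadjusted edgeR p under 0.05). The deviations of libraries with the same number correlated at 0.11, -0.16 and 0.18 for numbers 1 to 3, and since not every pair was over 0.1 the numbers were not taken to pair the libraries. Under the block the sign turned for Ifit1 (0.15), Ifit2 (0.092), Ifit3 (0.42), Ifit3b (0.16), Oas3 (0.24), Oasl2 (0.15), Rsad2 (1.21) and Zbp1 (0.10), and with limma on log2(TPM + 0.1) for Ifit2 (0.042).

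Leaving out 1 library at a time turned the sign of 22 members, in 20 of them without WT library 1 alone. The log2 fold changes then ranged from -3.28 to 1.34 for Ifit1, -1.44 to 1.02 for Ifit2, -4.20 to 1.56 for Ifit3, -3.98 to 1.30 for Ifit3b, -2.54 to 0.55 for Isg15, -2.98 to 0.18 for Usp18 and -0.82 to 0.35 for Herc6. They ranged from -4.24 to 1.04 for Oas1a, -2.79 to 0.36 for Oas2, -2.20 to 0.71 for Oas3, -1.94 to 0.32 for Oasl1 and -2.07 to 1.05 for Oasl2. For Stat2 they were -0.97 to 0.13, for Irf7 -3.18 to 0.62, for Ifih1 -0.88 to 0.38, for Dhx58 -1.08 to 0.22 and for Zbp1 -2.18 to 1.23. For Rsad2 they were -1.55 to 2.22, for Rtp4 -3.94 to 0.17 and for Trim30a -0.78 to 0.17. Ddx58 (-0.23 to 0.91) turned without G643W library 2 or WT library 2, and Gbp3 (-0.68 to 0.062) without G643W library 2.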

Other observations

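DESeq2 gave no p-value to 11 of the 34 members (32.4%), against 0.688% of the 20654 genes it fitted, a step by which it sets aside genes with a count far from the rest of its group. The 11 were Ifi27l2a, Ifi44, Ifit1, Ifit3, Ifit3b, Irf7, Isg15, Oas1a, Rsad2, Rtp4 and Zbp1.

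In 14 of the 34 members a single transcript held over 90% of the gene's estimated reads in every library. For Ifi44 a retained-intron transcript held 46.1, 20.9 and 30.2% of the reads in G643W libraries 1 to 3, and 2.73, 8.63 and 4.84% in WT libraries 1 to 3. The gene had 35 to 114 estimated reads in the G643W libraries, and 103 to 3566 in the WT libraries. Over the promoter windows, the ratio of WT library 1 to the next library had a median of 2.55 in 16 members with an ISRE-like match and of 4.31 in 9 without.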
